A study of Rattus norvegicus with 6 samples.

Results

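Heme and iron handling genes were examined in cultured rat nucleus pulposus cells, which come from the soft centre of the disc between vertebrae. The group comprises Hmox1, Hmox2, Blvra, Blvrb, Fth1, Ftl1, Tfrc, Slc40a1, Aco1 and Ireb2. It was taken by gene symbol, by a rule that used no expression values, although earlier results of these data were known. All 10 symbols had 1 row each among the 32623 genes listed. RNA sequencing covered shBmal1 cells (3 libraries), given a lentivirus with a short hairpin RNA against Bmal1, and shNC cells (3 libraries), given a lentivirus with a negative control hairpin, each for 72 hours. Per the labels, the donors were 4-week-old Sprague-Dawley males, the lumbar spine was the source, and all cells were at passages 3 to 5. The extraction protocol speaks of an adipose type, whereas every sample is labelled as nucleus pulposus cells. The sources used here give neither the number of rats pooled, nor the number of hairpins, nor whether the libraries of a group are separate cultures, so p-values measure the spread between these libraries only, which may be technical.

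Heme oxygenases open the heme ring and release ferrous iron, carbon monoxide and biliverdin, which biliverdin reductases turn into bilirubin. Iron enters most cells through the transferrin receptor, is stored inside ferritin shells of heavy and light chains, and leaves through ferroportin, the product of Slc40a1. Iron regulatory proteins, encoded by Aco1 and Ireb2, bind iron-responsive elements in ferritin and transferrin receptor transcripts when iron is scarce, which blocks ferritin translation and protects the receptor transcript. The disc core has no blood vessels of its own. Bmal1 encodes a core activator of the circadian clock, and heme binds the REV-ERB receptors, which repress Bmal1.

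The libraries differed in more than the hairpin. Total counts were 8773762 to 11679587 in shBmal1 and 44043803 to 49783710 in shNC, and mitochondrial rRNA took 0.722 to 1.31% of counts in shBmal1 libraries and 0.0330 to 0.0602% in shNC libraries. Depth, rRNA share and hairpin cannot be told apart in this design. Arntl, the table's symbol for Bmal1, averaged 2.82 ± 1.23 CPM in shBmal1 and 29.6 ± 2.14 CPM in shNC (SD, n = 3 each; CPM is the TMM-scaled count relative to library size, where TMM corrects for library composition). Its log2 fold change was −3.37 ± 0.26 (SE; edgeR adjusted p = 1.17e-05). Of 14 tested markers of nucleus pulposus and notochord, 5 rose, 5 fell and 4 were not called (median log2 fold change 0.21), and the markers summed to 769 to 828 CPM in shBmal1 and 1827 to 1891 CPM in shNC. The markers named next were chosen after their values were seen and do not stand for the set. Acan averaged 32.8 ± 4.02 CPM in shBmal1 and 648 ± 43.8 CPM in shNC. Krt19 was at or below 4.31 CPM in every library, and Shh, which was not tested, had no count. The annulus fibrosus and fibroblast markers summed to 10625 to 13691 CPM in shBmal1 and 89879 to 104225 CPM in shNC. All 9 of them that were tested fell (median log2 fold change −2.94).

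Heme oxygenase 1 and the ferritin heavy chain rose in shBmal1 cells, as did the transferrin receptor, while both iron regulatory protein genes and both biliverdin reductase genes fell. Of the 10 genes, 3 were called higher, 4 lower and 3 neither (edgeR's quasi-likelihood test, adjusted p under 0.05 over 14342 tested genes). All 10 genes were tested. Among all tested genes 71.3% were called, 36.0% higher and 35.3% lower, so the share of these genes called is near the background. Their median log2 fold change was −0.29, against −0.01 over all tested genes, and their median absolute log2 fold change was 0.66, against 1.06. With limma on log2(FPKM + 1), 4 were called higher and 3 lower. In bulk RNA, fewer cells of a type and less RNA per cell cannot be told apart.

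**Figure D1:**
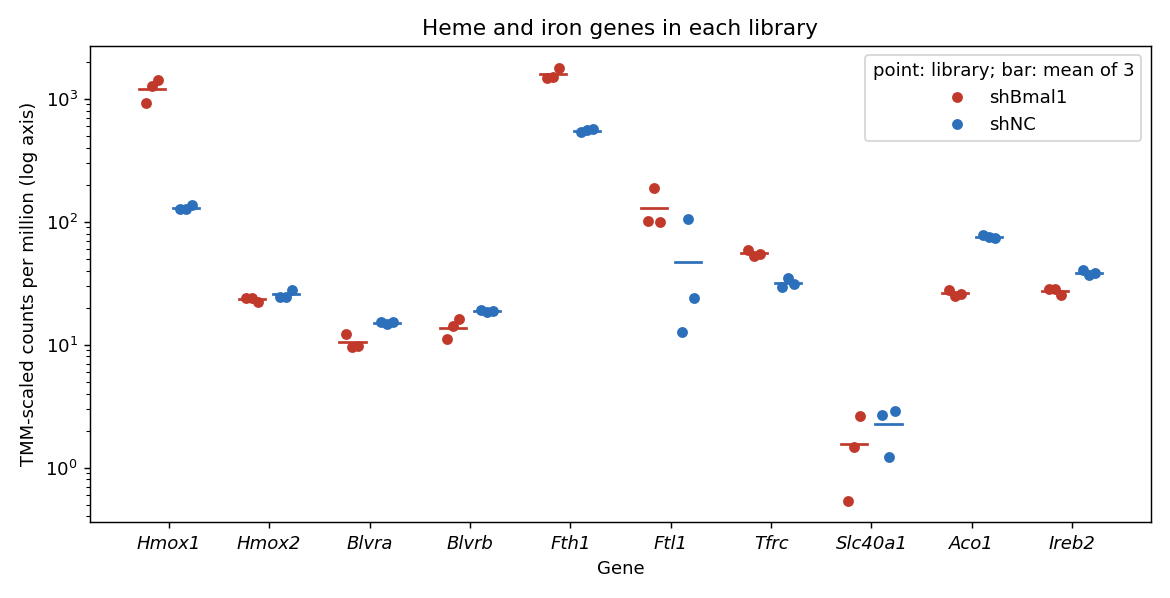
TMM-scaled counts relative to library size (CPM) of the 10 heme and iron genes in each library, on a log axis, with 3 shBmal1 libraries left of 3 shNC libraries; points are libraries and bars are group means. The groups are furthest apart for Hmox1 (913 to 1426 CPM in shBmal1, 126 to 137 CPM in shNC) and overlap for Ftl1 and Slc40a1.

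Hmox1 (ENSRNOG00000014117, chromosome 19, 14508616 to 14515456, forward strand, in the table's coordinates, of a build that the sources do not name) encodes the stress-inducible heme oxygenase. It had 913, 1259 and 1426 CPM in shBmal1 replicates 1 to 3, from 8473, 15430 and 17227 counts. The shNC libraries had 126, 127 and 137 CPM, from 5625, 5975 and 5773 counts. Every shBmal1 library thus lay above every shNC library, and the shBmal1 libraries were more spread, with a coefficient of variation of 21.8% against 4.66% in shNC. Hmox1 was 9.22-fold higher in shBmal1, with a log2 fold change of 3.20 ± 0.16 (SE; 95% interval 2.84 to 3.57; edgeR adjusted p = 9.71e-07). Of the tested genes, 1267 had a larger log2 fold change. By the authors' FPKM, which is scaled to gene length, it ranked 81st to 143rd among protein-coding genes in shBmal1 and 709th to 765th in shNC. The lowest shBmal1 value came from replicate 1, the library with the fewest counts (8773762) and the largest mitochondrial rRNA share (1.31%); their part in this value was not tested, and without that library the log2 fold change was 3.34.

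Hmox2 (ENSRNOG00000003773, chromosome 10, 10990034 to 11035484, reverse strand) encodes the constitutive heme oxygenase. It had 23.9, 23.9 and 22.4 CPM in shBmal1 and 24.4, 24.5 and 27.8 CPM in shNC. The highest shBmal1 library was just below the lowest shNC library. The log2 fold change of −0.13 had a 95% interval of −0.37 to 0.11 and did not pass (edgeR adjusted p = 0.300). With FPKM rescaled to TPM, a scaling that moved the median of all tested genes to −0.35, Hmox2 came to −0.48 and passed (limma adjusted p = 0.00247), which is −0.14 relative to that median.

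The balance between both heme oxygenase transcripts does not depend on library scaling. The FPKM ratio of Hmox1 to Hmox2 was 47.6, 65.5 and 79.5 in shBmal1 and 6.43, 6.44 and 6.13 in shNC. All shBmal1 ratios lay far above all shNC ratios. On the log2 scale the ratio averaged 5.97 ± 0.37 in shBmal1 and 2.66 ± 0.04 in shNC (SD, n = 3 each), a difference of 3.31. By exact permutation, two-sided, p was 0.1, and 3 against 3 libraries allow none smaller. By the rule used to find genes with a profile like that of the most changed gene, the 5 of 12295 named genes closest to Hmox1 over the 6 libraries were Tubb4a, Nfkbia, Arrdc3, Trmt13 and Gpr179. Their root mean square distance from Hmox1 in centred log2 CPM was 0.061 to 0.106. Tubb4a and Gpr179 had no count in shNC and under 1 CPM on average in shBmal1, so their likeness rests on few reads. Their fitted log2 fold changes were 7.04 and 7.19, against 3.20 for Hmox1. The distances were taken after a small count was added to each value, which shrinks differences at low counts. Nfkbia averaged 89.9 CPM in shBmal1 and 9.59 CPM in shNC.

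Next to the increase of Hmox1, both biliverdin reductase genes fell slightly. Blvra (ENSRNOG00000011778, chromosome 3, 119561290 to 119577806, forward strand) encodes the reductase that acts on the biliverdin made by heme oxygenases in adults. It had 12.3, 9.63 and 9.69 CPM in shBmal1 and 15.2, 14.6 and 15.1 CPM in shNC, so the groups were separate. Its log2 fold change was −0.51 ± 0.15 (SE; edgeR adjusted p = 0.0169). Blvrb (ENSRNOG00000024410, chromosome 1, 84256159 to 84274075, forward strand) encodes the flavin and biliverdin reductase B. It had 11.1, 14.0 and 16.1 CPM in shBmal1 and 19.1, 18.5 and 18.9 CPM in shNC, again without overlap. Its log2 fold change was −0.45 ± 0.16 (SE; edgeR adjusted p = 0.0305).

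Both calls are near the threshold. Blvra lost its call without shNC replicate 1 or 3 (edgeR adjusted p = 0.0521 and 0.0541), and Blvrb without shNC replicate 1, 2 or 3 (0.0804, 0.0725 and 0.0812). With every library thinned to the smallest total, the adjusted p was 0.0572 for Blvra and 0.109 for Blvrb. Before thinning, each had between 103 and 194 counts per shBmal1 library. Their FPKM ratio, Blvra to Blvrb, was 1.14, 0.706 and 0.620 in shBmal1 and 0.816, 0.812 and 0.822 in shNC, and the shBmal1 values lay on both sides of the shNC values (exact two-sided permutation p = 1).

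**Figure D2:**
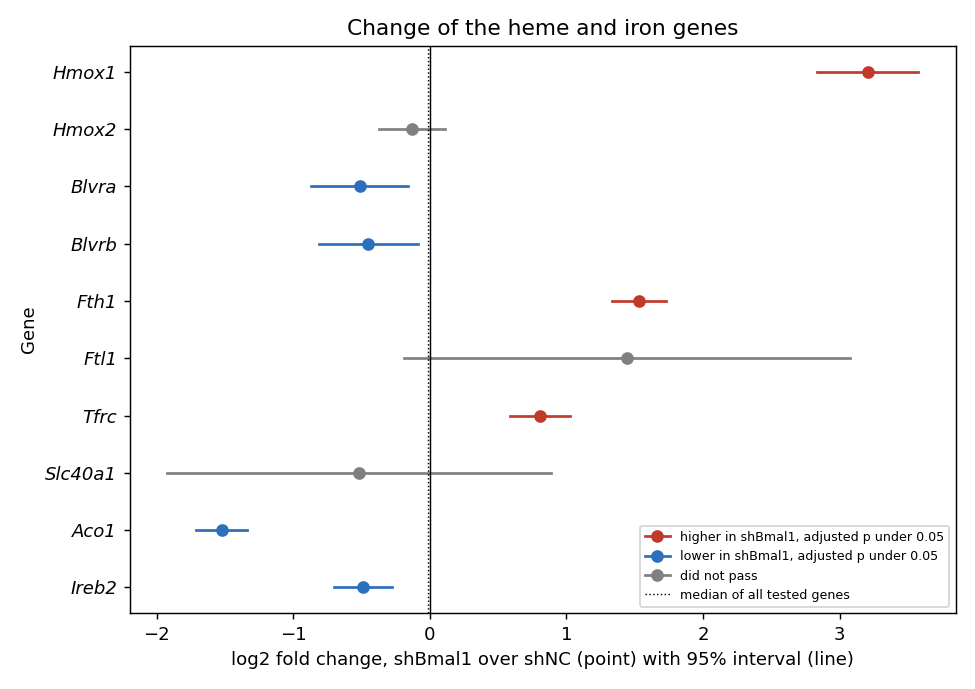
Log2 fold change of each heme and iron gene, shBmal1 over shNC, with its 95% interval; colour gives the call at an adjusted p under 0.05 and the dotted line the median of all tested genes (−0.01). Hmox1 stands furthest to the right at 3.20 and Aco1 furthest to the left at −1.52, and the intervals of Ftl1 and Slc40a1 are the widest.

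Among the 10 rows as the table names them, the ferritin heavy chain gene was the most abundant, and it rose in shBmal1. Fth1 (ENSRNOG00000022619, chromosome 1, 226030938 to 226033228, forward strand) encodes the heavy chain, which carries the ferroxidase site. It had 1472, 1489 and 1788 CPM in shBmal1 and 531, 553 and 561 CPM in shNC. No library of either group came near the other group. The log2 fold change was 1.53 ± 0.08 (SE; 95% interval 1.33 to 1.73; edgeR adjusted p = 1.68e-06), a 2.89-fold difference. Quantile normalization of FPKM gave 0.79 (limma adjusted p = 0.00327). In FPKM it was the 19th to 32nd most abundant protein-coding gene in shBmal1 and the 68th to 73rd in shNC.

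Fth1 lies within Best1, a bestrophin channel gene on the opposite strand (chromosome 1, 226030875 to 226049929). Best1 averaged 766 ± 45.8 CPM in shBmal1 and 251 ± 28.1 CPM in shNC (SD, n = 3 each), with a log2 fold change of 1.61 ± 0.09 (SE; edgeR adjusted p = 2.19e-06). The sources do not say whether reads were counted by strand, so reads of the overlapping genes may not be told apart. With the counts of Best1 added to Fth1, the log2 fold change was 1.56.

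The row named Ftl1 did not hold most of the ferritin light chain reads. It lies on chromosome 5 (ENSRNOG00000031506, 152325871 to 152326778, forward strand), spans 908 bases and sits between Cd52 and Ubxn11. RefSeq's GRCr8 annotation gives the name LOC100360087 to the gene between Cd52 and Ubxn11, and the name Ftl1 to the gene between Gys1 and Bax. In the deposited table the gene between Gys1 and Bax is named LOC100360087 (ENSRNOG00000020843, chromosome 1, 101448346 to 101449829, reverse strand). The names of these rows are thus exchanged between the table and RefSeq. In all, 5 rows are described as ferritin light chain.

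Ftl1, as the table names it, had 101, 187 and 99.3 CPM in shBmal1 and 12.7, 105 and 24.0 CPM in shNC. shNC replicate 2 lay above the lower shBmal1 libraries, so the groups overlapped. The log2 fold change was 1.44 ± 0.70 (SE; 95% interval −0.19 to 3.08) and did not pass (edgeR adjusted p = 0.0995). Without shNC replicate 2 it was 2.81 (adjusted p = 0.000705). This row took 6.13 to 11.7% of light chain counts in shBmal1 and 1.74 to 11.2% in shNC, and how reads were divided among near-identical copies is uncertain.

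LOC100360087, which matches RefSeq's Ftl1 by its neighbours, rose in shBmal1. It had 1310, 1251 and 1364 CPM in shBmal1 and 664, 773 and 771 CPM in shNC. The libraries of a group were close together and the groups were separate, with a log2 fold change of 0.83 ± 0.08 (SE; edgeR adjusted p = 2.68e-05). LOC100362384 on chromosome 13 rose by 0.83 and LOC100359668 on chromosome 6 by 2.49 on the log2 scale (edgeR adjusted p = 0.000979 and 0.00437). RGD1561661 had too few counts to be tested. With the 5 rows summed, an alternative chosen after seeing the data, the light chain averaged 1586 ± 43.9 CPM in shBmal1 and 836 ± 106 CPM in shNC (SD, n = 3 each). Its log2 fold change was 0.92 ± 0.09 (SE; edgeR adjusted p = 4.58e-05). Counted this way, 4 of the 10 genes rose. The microRNA rows that overlap LOC100360087 and Ftl1, given under other observations, were not part of the sum. The row over LOC100360087 had 1347 to 2358 counts in shBmal1 and 3742 to 4905 counts in shNC. Whether these rows took ferritin reads was not tested.

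**Figure D3:**
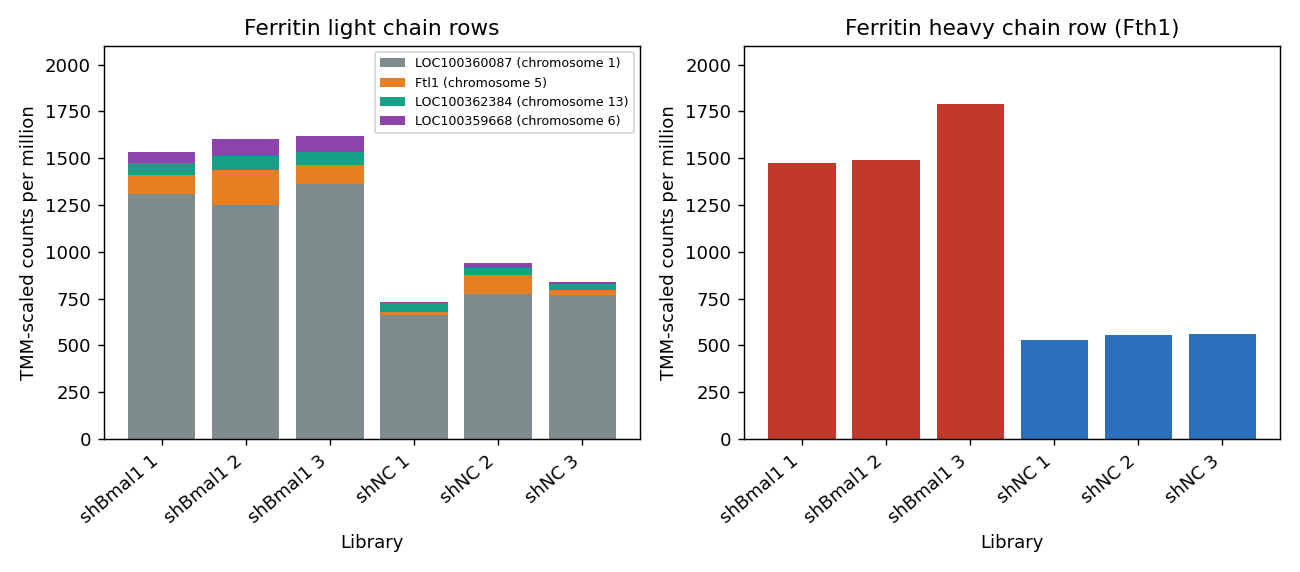
TMM-scaled counts relative to library size (CPM) of the tested ferritin light chain rows, stacked (left), and of Fth1 (right), in the 3 shBmal1 and 3 shNC libraries. LOC100360087 makes up most of every stack, the Ftl1 row varies between shNC libraries from 12.7 to 105 CPM, and both ferritin chains are higher in every shBmal1 library.

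The heavy chain rose more than the light chain. The FPKM ratio of Fth1 to the summed light chain was 0.655, 0.648 and 0.753 in shBmal1 and 0.488, 0.409 and 0.450 in shNC. All shBmal1 ratios exceeded all shNC ratios, by 0.61 on the log2 scale (−0.55 ± 0.12 in shBmal1, −1.16 ± 0.13 in shNC; SD, n = 3 each; exact two-sided permutation p = 0.1, the smallest possible). Against the Ftl1 row alone the ratio of Fth1 was 16, 8.73 and 19.7 in shBmal1 and 45.9, 5.74 and 25.6 in shNC, which overlap (exact two-sided permutation p = 0.7).

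Tfrc (ENSRNOG00000001766, chromosome 11, 71397383 to 71419223, reverse strand) encodes transferrin receptor 1, the main route of iron uptake. It had 58.9, 52.8 and 55.0 CPM in shBmal1 and 29.6, 35.0 and 30.9 CPM in shNC. Libraries agreed closely within each group and the groups were separate. The log2 fold change was 0.80 ± 0.09 (SE; 95% interval 0.58 to 1.02; edgeR adjusted p = 0.000125), or 1.75-fold. Tfrc was called in each alternative run, its lowest value being 0.41 with TPM, or 0.76 relative to the median of all genes on that scale.

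Slc40a1 (ENSRNOG00000049995, chromosome 9, 52820683 to 52830457, reverse strand) encodes ferroportin, the iron exporter. It had 5, 18 and 32 counts in shBmal1 and 119, 57 and 121 counts in shNC, which is 0.539, 1.47 and 2.65 CPM against 2.67, 1.21 and 2.87 CPM. Values overlapped, and the log2 fold change of −0.52 ± 0.61 (SE; 95% interval −1.92 to 0.89) did not pass (edgeR adjusted p = 0.469). With 1 library left out the log2 fold change ran from −1.16 (without shBmal1 replicate 3) to −0.16 (without shBmal1 replicate 1), and it was −0.81 without shNC replicate 2 and −0.30 without shNC replicate 3, none of them passing. Its coefficient of variation was 68.1% in shBmal1 and 40.3% in shNC. The FPKM ratio of Tfrc to Slc40a1 was 38.0, 11.2 and 6.30 in shBmal1 and 3.34, 8.71 and 3.26 in shNC, overlapping between groups (exact two-sided permutation p = 0.2).

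RefSeq's promoter table (build GRCr8) held 8 windows for 7 of the genes, all but Hmox1, Fth1 and Ftl1. The 250 bases upstream of the start are shown for Tfrc, which rose, for the first of the Hmox2 starts, which did not pass, and for Aco1, which fell. Capitals mark ACGTG on either strand, the core of the hypoxia response element, which human TFRC is known to carry.
Tfrc, chr11:81690319-81690568, reverse strand: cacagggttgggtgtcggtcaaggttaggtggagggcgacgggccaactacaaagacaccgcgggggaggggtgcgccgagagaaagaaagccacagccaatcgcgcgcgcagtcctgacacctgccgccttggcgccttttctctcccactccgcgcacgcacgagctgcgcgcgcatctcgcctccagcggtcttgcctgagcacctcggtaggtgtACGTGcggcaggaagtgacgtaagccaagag
Hmox2, chr10:11337613-11337862, reverse strand: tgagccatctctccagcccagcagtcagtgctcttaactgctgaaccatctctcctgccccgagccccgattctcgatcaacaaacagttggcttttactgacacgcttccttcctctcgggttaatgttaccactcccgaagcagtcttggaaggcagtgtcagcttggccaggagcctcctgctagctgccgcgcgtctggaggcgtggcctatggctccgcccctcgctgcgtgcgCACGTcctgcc
Aco1, chr5:60055645-60055894, forward strand: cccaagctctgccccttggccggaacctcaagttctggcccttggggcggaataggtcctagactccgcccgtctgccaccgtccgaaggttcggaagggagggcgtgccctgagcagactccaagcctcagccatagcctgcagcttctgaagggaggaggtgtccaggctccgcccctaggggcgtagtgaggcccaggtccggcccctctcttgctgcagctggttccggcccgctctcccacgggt

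The core ACGTG was present in 2 of the 8 windows, those of Tfrc and of the first Hmox2 start, where it begins 31 and 11 bases upstream of the start. It occurs in 16.6% of all 33469 RefSeq windows of that length. The E-box CACGTG, the letters that CLOCK and BMAL1 are known to bind and which contain ACGTG on both strands, was in 0 of the 8 windows and in 5.59% of all windows. TGACNNNGC, the core of the antioxidant response element, was in 2 windows, of Blvra and Hmox2, and in 10.1% of all. A match or its lack describes the letters of these windows alone.

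The genes of both iron regulatory proteins fell, Aco1 more than Ireb2. Aco1 (ENSRNOG00000005849, chromosome 5, 56425024 to 56481218, forward strand) encodes a protein that is cytosolic aconitase when it holds an iron-sulfur cluster and an iron regulatory protein when it does not. It had 27.9, 24.7 and 25.8 CPM in shBmal1 and 77.5, 74.5 and 73.4 CPM in shNC. Each shNC library exceeded every shBmal1 library by far. The log2 fold change was −1.52 ± 0.08 (SE; 95% interval −1.71 to −1.34; edgeR adjusted p = 1.39e-06), which left 0.348 of the shNC level. It was called lower in each alternative, between −1.82 and −1.304.

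Ireb2 (ENSRNOG00000013271, chromosome 8, 59420123 to 59501118, forward strand) encodes the other iron regulatory protein, which is degraded when iron is plentiful. It had 28.6, 28.3 and 25.5 CPM in shBmal1 and 40.1, 37.0 and 38.4 CPM in shNC, without overlap. The log2 fold change was −0.49 ± 0.09 (SE; edgeR adjusted p = 0.00168), and −0.29 with a correction for gene length. Within libraries the FPKM ratio of Aco1 to Ireb2 was 0.956, 0.850 and 0.990 in shBmal1 and 1.89, 1.97 and 1.87 in shNC. The difference in the log2 ratio was −1.03 (−0.10 ± 0.12 in shBmal1, 0.93 ± 0.04 in shNC; SD, n = 3 each; exact two-sided permutation p = 0.1, the smallest possible).

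**Figure D4:**
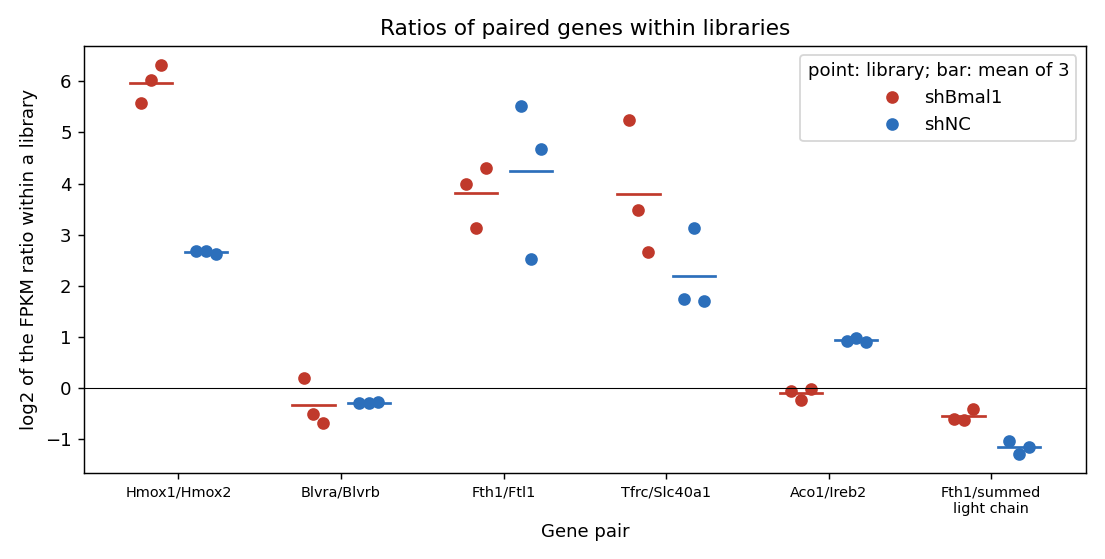
Log2 of the FPKM ratio of paired genes within each library, for 3 shBmal1 libraries (left of each pair) and 3 shNC libraries; bars are group means. Hmox1/Hmox2, Aco1/Ireb2 and Fth1 over the summed light chain show separate groups, while Blvra/Blvrb, Fth1/Ftl1 and Tfrc/Slc40a1 overlap.

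Per unit of length, the order of the genes also differed between the groups. In shBmal1 the authors' FPKM averaged 1898 for Fth1, 762 for Hmox1 and 141 for Ftl1, with no overlap between these neighbours. Blvrb (12.0), Hmox2 (11.9), Tfrc (11.5) and Blvra (9.43) followed, and each overlapped the next among them. Ireb2 (8.05) and Aco1 (7.49) also overlapped each other, and Slc40a1 was last at 1.04. In shNC Fth1 averaged 608, Hmox1 76.5 and Ftl1 48.1, of which Hmox1 and Ftl1 overlapped because of a range of 12.7 to 107 for Ftl1. Aco1 was next at 19.9, with overlap with Ftl1, then Blvrb at 15.2, Blvra at 12.4 and Hmox2 at 12.1, the last pair overlapping. Ireb2 (10.5), Tfrc (6.12) and Slc40a1 (1.43) closed the order without overlap. The place of Ftl1 in both orders is that of the chromosome 5 row of that name. LOC100360087, which matches RefSeq's Ftl1, averaged 2357 FPKM in shBmal1 and 1228 FPKM in shNC, above Fth1 in each group. The sum of the listed FPKM was 565293 to 598765 in shBmal1 and 410231 to 418147 in shNC, so levels were compared within a group only.

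Upstream of heme oxygenase, most genes of heme synthesis fell. Of 11 tested genes on that list, 1 rose, 8 fell and 2 did not pass (median log2 fold change −0.97). Here and for each list that follows, the background is that of all tested genes, of which 36.0% were called higher and 35.3% lower, with a median of −0.01. The riser was Alas1, the housekeeping form of the enzyme that makes the first committed precursor, with 46.4, 58.1 and 62.7 CPM in shBmal1 and 19.5, 19.7 and 20.2 CPM in shNC. Its log2 fold change was 1.49 ± 0.12 (SE; edgeR adjusted p = 1.35e-05). Fech, whose product inserts iron into the ring at the last step, averaged 10.9 ± 1.03 CPM in shBmal1 and 35.1 ± 1.28 CPM in shNC (SD, n = 3 each), and fell by 1.69 (edgeR adjusted p = 5.24e-06). Urod fell by 0.97 and Tmem14c, a porphyrinogen transporter gene, by 0.84.

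Further enzymes of the pathway were named after their values were seen. Alad (−1.36), Uros (−1.001), Cpox (−0.46) and Ppox (−1.20) also fell, so that the 6 enzyme genes named here for steps after the first were all lower. The calls of Uros and Cpox were lost without shNC replicate 1 or 3 (edgeR adjusted p = 0.0792 and 0.0715 for Uros, 0.0761 and 0.105 for Cpox), and that of Cpox also without shNC replicate 2 (0.0666) or shBmal1 replicate 2 or 3 (0.0663 and 0.0668).

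**Figure D5:**
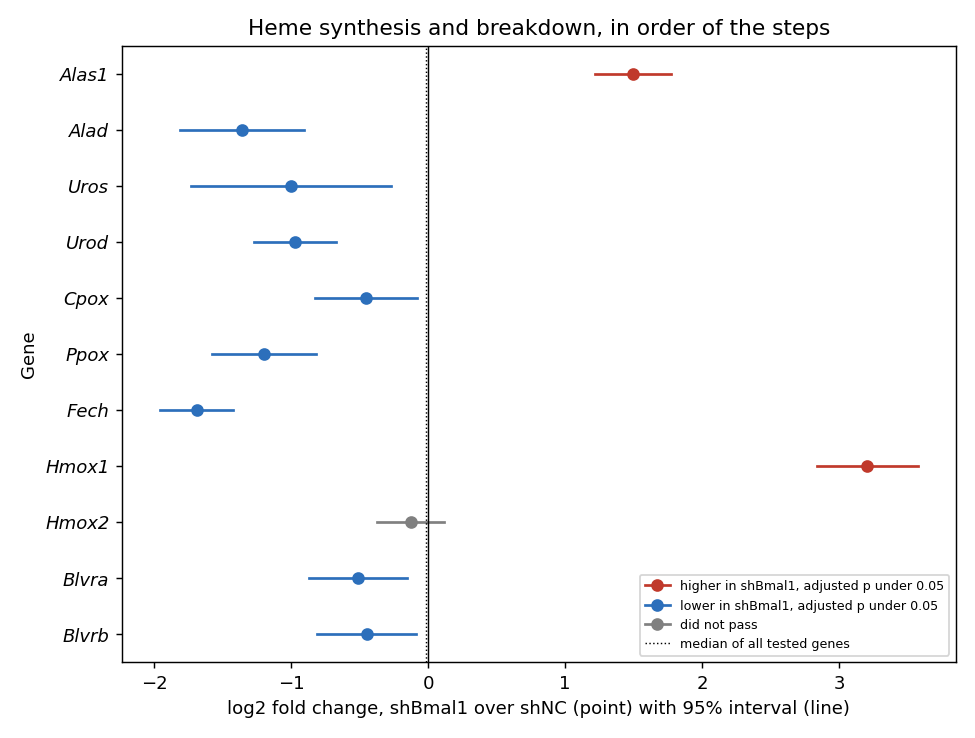
Log2 fold change, shBmal1 over shNC, with its 95% interval, for named genes of heme synthesis (Alas1 to Fech) and breakdown (Hmox1 to Blvrb) in the order of the steps; colour gives the call. Alas1 (1.49) and Hmox1 (3.20) lie to the right of 0, the 6 enzyme genes from Alad to Fech that are plotted and both biliverdin reductase genes to the left.

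Heme transporters and carriers moved both ways. The 11 tested held 2 that rose, 7 that fell and 2 that missed the threshold (median −0.32); with RLE size factors 3 rose and 6 fell. Flvcr1, which encodes a heme exporter of the plasma membrane, had 49.9, 52.5 and 43.9 CPM in shBmal1 and 3.995, 4.91 and 5.01 CPM in shNC. That is a log2 fold change of 3.39 ± 0.14 (SE; edgeR adjusted p = 3.78e-07), beside 3.20 for Hmox1. Lrp1, whose product takes up heme bound to hemopexin, fell by 1.38, and the mitochondrial transporter genes Abcb6 and Abcb10 fell by 1.18 and 1.92.

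Other genes of iron uptake and export moved both ways: 4 of 16 tested rose, 7 fell and 5 were not called (median −0.24), with 71.3% of all tested genes called. With TPM 3 were higher and 9 lower, and with a correction for gene length 4 were higher and 3 lower. Cybrd1, a ferric reductase gene, averaged 22.9 ± 3.14 CPM in shBmal1 and 125 ± 0.858 CPM in shNC (SD, n = 3 each) and fell by 2.45 (edgeR adjusted p = 4.46e-07). Slc39a14, which encodes an importer of iron not bound to transferrin, fell by 1.23, and the metalloreductase gene Steap2 by 1.34. Slc25a37, which encodes the mitochondrial iron importer mitoferrin, rose by 1.15. Without shNC replicate 1, 2 or 3 the numbers lower were 3, 3 and 4, and the numbers higher 2, 2 and 3.

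Of 8 tested genes of iron storage and ferritin turnover, 4 rose and 4 fell (median −0.13), but with TPM and with quantile-normalized FPKM 1 was higher and 4 lower. Scara5, known in mouse as a receptor for ferritin, averaged 10.6 ± 0.353 CPM in shBmal1 and 77.6 ± 7.81 CPM in shNC (SD, n = 3 each) and fell by 2.88 (edgeR adjusted p = 2.47e-07). Pcbp4 fell by 1.23. Herc2, a ubiquitin ligase gene, rose by 0.98, and Pcbp2, whose product delivers iron to proteins, rose by 0.51 but missed the threshold with TPM and quantile-normalized FPKM (limma adjusted p = 0.256 and 0.567). Fbxl5, which encodes the iron-sensing subunit that marks iron regulatory proteins for degradation, fell by 0.52. Ncoa4, the receptor for ferritin autophagy, had 0.25 (edgeR adjusted p = 0.0157) but lost its call without shBmal1 replicate 2 or shNC replicate 3 (0.0501 and 0.0690) and turned to −0.12 with TPM. Fbxl5 and Ncoa4 were named after their values were seen.

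Iron-sulfur cluster assembly was split: 8 of its 29 tested genes rose, 12 fell and 9 were not called (median −0.35); with TPM 7 were higher and 20 lower. Hspa9, the mitochondrial chaperone gene, averaged 1879 ± 99.8 CPM in shBmal1 and 330.1 ± 17.0 CPM in shNC (SD, n = 3 each), a log2 fold change of 2.51 (edgeR adjusted p = 6.71e-08). Bola3 (3.22), Ciao2b (1.80) and Nubp2 (0.85) rose as well. Among 9 tested transcripts known to carry an iron-responsive element, of which 4 are described above, 2 rose, 3 fell and 4 did not pass (median −0.16); with limma on log2(FPKM + 1) 3 rose and 2 fell. The Fth1 and Tfrc transcripts both rose. The element of Fth1 acts on translation, which RNA levels do not measure. Cdc42bpa fell by 1.53 and Epas1, which encodes a hypoxia-inducible factor, by 1.92.

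Regulators of Hmox1 were examined through the BACH1 and NRF2 list, where 10 of 17 tested genes rose, 4 fell and 3 did not pass (median 0.33); with TPM 8 were higher and 7 lower, and with quantile-normalized FPKM 8 and 6. The small MAF genes, whose products pair with NRF2 or BACH1, were the strongest. Maff had 480.4, 564 and 540.5 CPM in shBmal1 and 32.3, 32.0 and 35.5 CPM in shNC, a log2 fold change of 3.99 ± 0.09 (SE; edgeR adjusted p = 4.32e-08). Mafk rose by 2.79 and Taldo1 by 1.10. Named after their values were seen, Keap1, which encodes the adaptor that marks NRF2 for degradation, fell by 1.56, and Nfe2l2, the NRF2 gene itself, had 0.09 (95% interval −0.10 to 0.27) and Bach1 0.23 (−0.19 to 0.65), neither passing. Nfe2l2 passed at 0.21 with a correction for gene length (edgeR adjusted p = 0.0404), turned to −0.28 with TPM and −0.34 with quantile-normalized FPKM, and Bach1 to −0.14 with TPM.

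Of 16 tested ferroptosis genes, 9 rose, 3 fell and 4 did not pass (median 1.08). Over all tested genes 71.3% were called, 36.0% higher and 35.3% lower. The list was not split into genes that promote and genes that restrain ferroptosis. Its counts thus give no direction for the process. Ptgs2 (3.58), Chac1 (1.94) and Slc3a2, a subunit of the cystine transporter (1.299), rose, and Nox4 fell by 3.05. The other subunit gene, Slc7a11, is counted on the BACH1 and NRF2 list and not here. It also rose (1.35, named after its values were seen).

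Most markers of red cells and macrophages, which handle much heme and iron in the body, were at or near 0. Of 12 matched erythroid markers, 3 had no count in any library, 11 stayed under 5 CPM throughout, and Hba-a1, Hba-a2, Hbb and Hbb-bs had no count in any shBmal1 library. The shBmal1 libraries, which lacked globin counts, were also the less deeply sequenced. The erythroid sum was 67.6 to 93.3 CPM in shBmal1 and 48.5 to 53.5 CPM in shNC. The 1 marker tested was higher (log2 fold change 0.75). With 11 of the 12 markers under 5 CPM, this sum does not stand for the set. Of 17 macrophage and leukocyte markers, 5 had no count in any library (C1qb, C1qc, Tyrobp, Marco and Vsig4) and 14 stayed under 5 CPM throughout. The macrophage and leukocyte sum was 44.6 to 57.3 CPM in shBmal1 and 32.8 to 44.3 CPM in shNC. Of 5 tested, 4 rose and Cd14 fell. Fcer1g, chosen after its values were seen, had 146, 97 and 107 counts in shBmal1 and 0, 3 and 10 counts in shNC. The part of these cells in the results was not tested.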

How the data were processed

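RNA was poly(A)-selected and sequenced as Illumina paired ends, per the labels' protocols. Tools listed, without roles, in the submitters' processing notes are HISAT2 2.0.4, cutadapt 1.9, DESeq2, edgeR and StringTie 1.3.4d; the sources used here do not give build, annotation, counter or strand. The deposited table holds raw counts per gene and library and, per the file headers, FPKM values, with genes of no count listed at 1e-04. Value columns tied to no sample numbered 0.

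Groups and replicate numbers came from the sample titles. Low counts were removed with filterByExpr (minimum count 10 and minimum total 15), and the rest TMM-scaled and tested with edgeR 4.0.16 in R 4.3.3 (glmQLFTest, 95% intervals from its moderated degrees of freedom), Benjamini-Hochberg adjusted over all 14342 genes; alternatives used DESeq2 1.42.0 and limma 3.58.1. The procedure was tested on simulated counts. Within-library FPKM ratios were compared by exact permutation. Of 204 symbols on the lists and marker sets 194 matched; Pcbp1, Srxn1 and Nfs1 were not analysed here. Genes and lists were chosen with earlier results of these data known. Named are all 10 genes and up to 4 called genes per list with the smallest p; others are said to be named after their values were seen, and a few genes are not reported here. Replicates differed by more than counting noise (10.8 to 25.1 chi-square units per degree of freedom). In CPM, 3 counts equal 0.257 to 0.342 per shBmal1 library and 0.0603 to 0.0681 per shNC library, for counting error only.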

Additional observations from a re-analysis of the deposited data

How the results depend on the processing

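Of the heme and iron genes, Hmox1, Fth1, Tfrc, Aco1 and Ireb2 kept their direction and call in 13 other scalings, filters and tools, in the 6 fits that each left out 1 library and in the 2 added after seeing the data (light chain rows summed, Best1 added to Fth1). The number of these genes called lower, 4, was 2 with libraries thinned to the smallest total and 5 with TPM. It was 2 to 4 when 1 library was left out (2 without shNC replicate 1 or 3). The number called higher was 3 or 4. With TPM 4065 tested genes were higher and 6681 lower, against 5167 and 5066, with a median of −0.35. The replicate numbers did not pair libraries (correlation of same-numbered deviations −0.07, −0.003 and 0.02; 1 of 6 libraries correlated best with its own number); with the replicate block 4663 genes were higher and 4752 lower, 4 and 3 of the heme and iron genes, Ftl1 passing (1.93, edgeR adjusted p = 0.00657) and Blvrb not (0.0506), and 4 iron uptake genes were lower against 7. Blvrb also missed with RLE factors (0.0529) and with limma on log2(FPKM + 1) or + 0.1 (0.0550 and 0.0573), where Ftl1 passed (0.0386 and 0.0434). Thinning left 2 iron uptake genes higher against 4, as did quantile normalization, and 4 heme transport genes were higher without shBmal1 replicate 1, against 2. Cpox missed with 7 further alternatives, Uros with the block (0.0685) and thinning (0.219). Directions reversed for Ncoa4 (−0.12), Bach1 (−0.14) and Nfe2l2 (−0.28) with TPM, for Nfe2l2 (−0.34) with quantile normalization, and for ratio differences that did not pass: Blvra/Blvrb, −0.04, ran from −0.30 to 0.14 and Fth1/Ftl1, −0.43, from −1.29 to 0.21 with 1 library left out. The cause was not tested. Counts were low, 5 to 194 per shBmal1 library, for Slc40a1, Blvra and Blvrb.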

Other observations

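A row annotated as a microRNA within the table's Ftl1 gene (AC120071, chromosome 5, 152326537 to 152326642, same strand) had 1, 3 and 942 counts in shBmal1 replicates 1 to 3 and 2, 3 and 3 counts in shNC. Another microRNA row (AC128792, chromosome 1, 101448331 to 101448436, same strand) overlaps LOC100360087 but reaches past its end. It had 1347, 2358 and 2324 counts in shBmal1 and 4905, 3742 and 3858 counts in shNC.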
